A study of Homo sapiens with 15 samples.

Results

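The BCL2 family decides, at the mitochondrion, whether a stressed cell undergoes apoptosis, and the mRNAs of 10 of its genes were followed here through cytarabine and FL-Fc-DM1 treatment of a leukemia line. The genes are those whose symbol in the deposited expression table is BCL2, BCL2L1, MCL1, BCL2A1, BAX, BAK1, BCL2L11, BMF, PMAIP1 or BBC3, which gave 10 of 20375 genes, picked by name. Poly(A) RNA of Molm-13, a human acute myeloid leukemia line of monocytic type with an internal tandem duplication of FLT3, was sequenced in 15 libraries, 3 per group. Control cells grew for 4 days with no drug. A pair of groups received cytarabine, a nucleoside analog that stops DNA synthesis, at 0.5 or 1 µM throughout those 4 days. The remaining pair received cytarabine at 0.5 or 1 µM for 3 days and then, with cytarabine taken away, FL-Fc-DM1 at 1 nM for 24 hours. What FL-Fc-DM1 consists of is not explained in the labels. Set against cytarabine of the same dose, an FL-Fc-DM1 group differs both by the new agent and by the withdrawal of cytarabine, and these cannot be told apart. THP-1, another monocytic line, is named where the labels describe how the FL-Fc-DM1 groups were treated, whereas the titles, the cell line entries and the design text give Molm-13. Whether the libraries of a group were separate cultures is not stated, so the p-values reflect the scatter of these libraries, possibly technical only.

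Members of the family carry short BCL2 homology motifs and act by binding one another. The guardians BCL2, BCL-XL (gene BCL2L1), MCL1 and BFL1/A1 (gene BCL2A1) hold the death-promoting members in check. The effectors BAX and BAK (gene BAK1) form pores in the outer mitochondrial membrane once released, which lets cytochrome c out and starts the caspases. BH3-only proteins, among them BIM (gene BCL2L11), BMF, NOXA (gene PMAIP1) and PUMA (gene BBC3), sense damage or loss of growth signals and neutralize guardians. Acute myeloid leukemia cells commonly rely on BCL2, MCL1 or both, and the BCL2 inhibitor venetoclax is used in that disease. Only mRNA was measured here, neither protein nor cell death.

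Each library held between 10.86 and 16.97 M counts. The mitochondrially encoded share of counts was 4.64% in control and 6.30% to 6.68% in the other groups, and its part in the results was not tested. Of 10 marker genes of the myeloid line all had counts in every group, and their summed level was 1330 to 1367 CPM in control, 9850 to 10340 and 7960 to 8237 CPM with cytarabine at 0.5 and 1 µM, and 16400 to 17150 and 14700 to 15180 CPM after FL-Fc-DM1, most of it LYZ in all groups but control. Summed markers stayed at or below 1.26 CPM for 5 B cell genes, 0.191 CPM for 5 erythroid genes and 2.56 CPM for 6 epithelial and stromal genes, with EPCAM, KRT19 and COL1A2 at 0 in every library. The 7 T and NK cell markers summed to 30.1 to 33.4 CPM in control and 52.6 to 69.98 CPM elsewhere, most of it NKG7, with CD2 or CD3G at 0 in 4 of the 5 groups, and their part in the results was not tested. CPM values are counts divided by library size after TMM scaling and compare 1 gene between libraries. TPM values, as deposited by the authors, are also divided by transcript length and were used to compare genes.

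All 10 genes were expressed in every library and all passed the filter on low counts. In control cells BCL2 stood first on the per-length scale with 211 ± 6.75 TPM (SD, n = 3), ahead of BAX with 194 ± 11.6 TPM, although the libraries of these neighbours overlapped. MCL1 followed with 124 ± 3.67 TPM and PMAIP1 with 57.9 ± 2.32 TPM. BAK1, BMF, BCL2L11 and BBC3 lay between 24.5 and 37.8 TPM, with overlap between BAK1 and BMF, and BCL2L1 (13.2 ± 1.08 TPM) and BCL2A1 (10.7 ± 2.32 TPM) were lowest and overlapped each other. In the 4 treated groups BAX stood first with 195 to 237 TPM and MCL1 came next with 151 to 167 TPM, without overlap between them. BCL2 fell to places 3 to 5 of the order, and overlapped the next gene in every treated group but 0.5 µM cytarabine. BMF took the place after MCL1 in both cytarabine groups, with 74.3 ± 0.249 TPM at 0.5 µM and 96.6 ± 5.97 TPM at 1 µM. BCL2L1 had the lowest mean TPM of the 10 genes in all 4 treated groups, with overlap with BBC3 after 0.5 µM and FL-Fc-DM1.

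**Figure D1:**
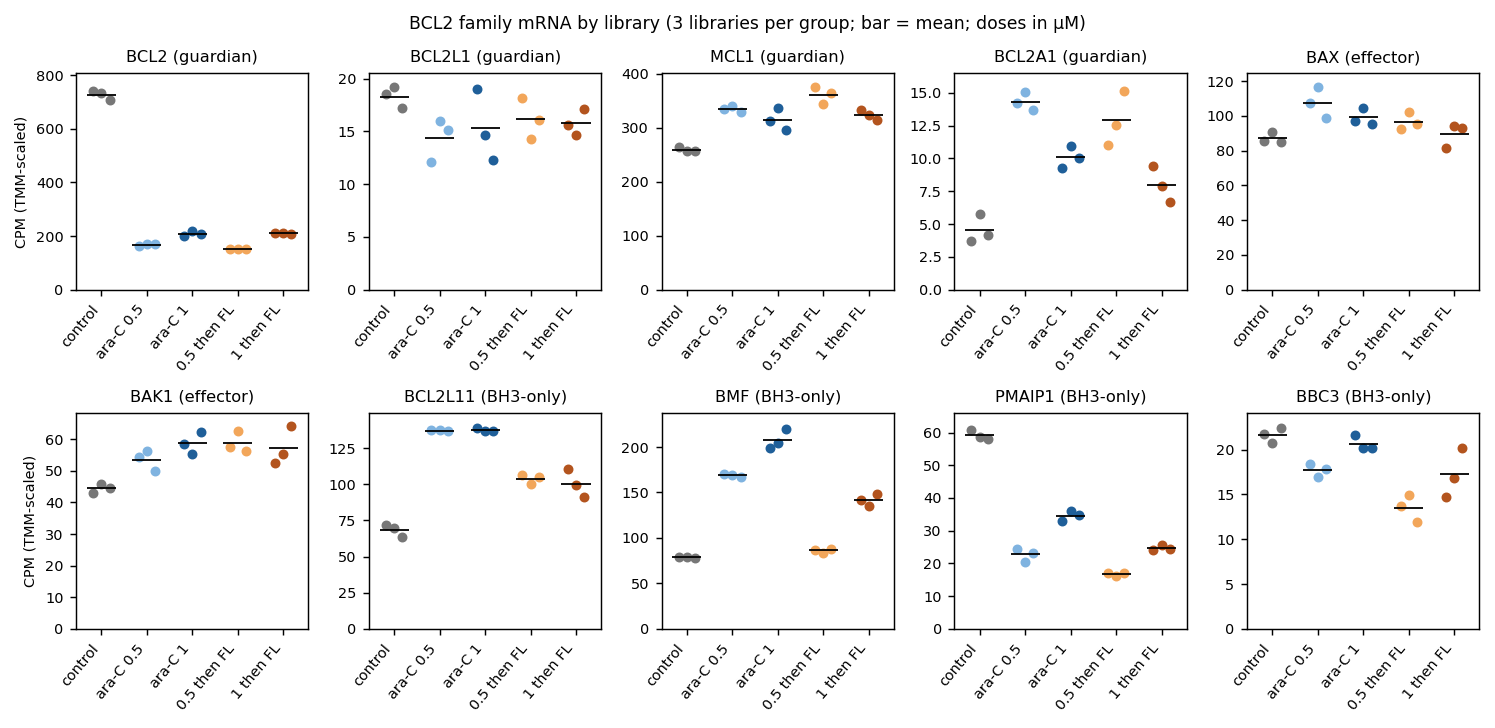
Level of each BCL2 family mRNA in every library, in CPM on TMM-scaled library sizes (vertical axes start at 0 and differ between panels). Points are libraries, 3 per group, bars are group means, "ara-C" is cytarabine in µM and "then FL" is FL-Fc-DM1 after that dose. BCL2 was at 708 to 739.8 CPM in control and at or below 217 CPM in all other libraries, whereas BMF and BCL2L11 were lowest in control and highest with cytarabine.

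Cytarabine for 4 days moved the family in both directions: BCL2 and PMAIP1 mRNA fell, and BCL2A1, BMF, BCL2L11, MCL1, BAX and BAK1 mRNA rose at both doses. At 0.5 µM 6 of the 10 genes were called higher and 4 lower (adjusted p under 0.05), against 38% and 35.2% of the 12355 genes tested, so 10 of 10 were called where 73.2% of all genes were. At 1 µM 6 were called higher, 2 lower and 2 neither, against 39.3% higher, 36.6% lower and 75.9% in all. The median log2 change of the 10 genes was 0.29 and 0.23 at the 2 doses, against 0.03 and 0.03 over all genes tested. With so large a share of all genes called, the number of family genes called is near the background, and the sizes of the single changes are given below. Both comparisons use the same 3 control libraries.

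FL-Fc-DM1 with cytarabine withdrawn left BCL2 mRNA low, and BCL2L11, BMF and PMAIP1 mRNA were lower than with continued cytarabine at both doses. BBC3 was also called lower at both, but after 1 µM the groups overlapped and the call was lost without any of 5 of the 6 libraries compared and under 4 other settings. Outside the 10 genes, the BH3-only gene BID was higher than with cytarabine, by 0.41 and 0.29 on the log2 scale (edgeR adjusted p = 1.36e-05 and 0.000899). After 0.5 µM 1 gene (MCL1) was called higher and 6 lower, against 22% and 22.8% of all genes tested, and 44.7% in either direction. After 1 µM none was called higher and 4 were called lower, against 23.5%, 22.2% and 45.7%. Those 4 were BCL2L11, BMF, PMAIP1 and BBC3, which were also among the 6 called lower after 0.5 µM, together with BCL2 and BAX. For the count of 0 called higher after 1 µM, edgeR's unadjusted p was under 0.05 for 0 of the 10 genes in that direction, and no alternative called any higher. The median log2 change of the 10 genes was -0.15 and -0.20, against -0.02 and -0.004 over all genes. These comparisons share the cytarabine libraries with the previous ones, so the levels against control are also given for each gene. In bulk RNA, fewer cells of a type and less RNA per cell cannot be told apart.

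**Figure D2:**
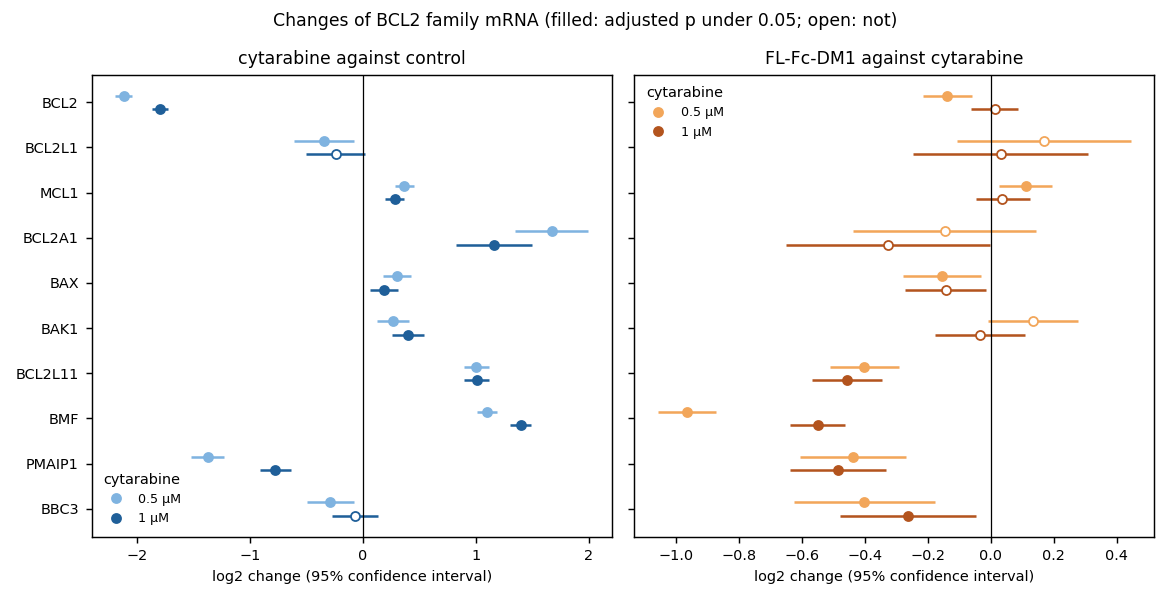
Log2 change of each gene with its 95% confidence interval from edgeR's quasi-likelihood fit, for cytarabine against control (left) and for FL-Fc-DM1 against cytarabine of the same dose (right; the horizontal scales differ). Filled points passed an adjusted p of 0.05 and open points did not. The BCL2 points lie at -2.12 and -1.80 on the left and at -0.14 and 0.01 on the right. On the right, BCL2L11, BMF, PMAIP1 and BBC3 lie below 0 at both doses, where the median over all genes tested was -0.02 and -0.004. Other BH3-only genes, among them BID, which was higher, are not shown.

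BCL2 (ENSG00000171791), the founding guardian and the target of venetoclax, had the largest fall of the 10 genes. Its level was 739.8, 734 and 708 CPM in the control libraries, 161, 171 and 169.6 CPM with 0.5 µM cytarabine and 201, 217 and 208 CPM with 1 µM. After FL-Fc-DM1 it was 153, 151 and 152 CPM for 0.5 µM and 212, 213 and 207 CPM for 1 µM. Every control library was above every treated library, and both 1 µM groups were above both 0.5 µM groups. The fall with cytarabine was 4.35-fold at 0.5 µM (log2 change -2.12 ± 0.0355, SE; adjusted p = 5.99e-26, edgeR quasi-likelihood test, Benjamini-Hochberg) and 3.48-fold at 1 µM (-1.80 ± 0.0347). Of all genes tested, 7.08% and 10.6% had a larger absolute log2 change. The fall was thus smaller at the higher dose, with BCL2 1.25-fold higher at 1 µM than at 0.5 µM (edgeR adjusted p = 4.09e-07) and 1.39-fold higher after FL-Fc-DM1 (edgeR adjusted p = 5.22e-10). Against continued cytarabine, BCL2 was a further 1.10-fold lower in the FL-Fc-DM1 group after 0.5 µM (-0.14 ± 0.0377, edgeR adjusted p = 0.00419). After 1 µM the difference was 0.01, with a 95% interval of -0.06 to 0.09. Against control, the FL-Fc-DM1 groups were 4.79-fold and 3.45-fold lower.

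MCL1 (ENSG00000143384), a guardian whose protein is short-lived and rapidly renewed, rose by at most 1.39-fold in any group. It measured 265, 256 and 257 CPM in control, 334, 341 and 329 CPM with 0.5 µM cytarabine and 313, 337 and 296 CPM with 1 µM. After FL-Fc-DM1 the libraries held 376, 344 and 364 CPM for 0.5 µM and 332, 324 and 314 CPM for 1 µM. No treated library overlapped control, and the rise with cytarabine was 1.29-fold at 0.5 µM (log2 change 0.37 ± 0.0412, edgeR adjusted p = 1.16e-08) and 1.22-fold at 1 µM (0.28 ± 0.0412, edgeR adjusted p = 9.38e-07). The FL-Fc-DM1 groups were 1.39-fold and 1.25-fold above control. The FL-Fc-DM1 group after 0.5 µM was 1.08-fold above 0.5 µM cytarabine (edgeR adjusted p = 0.0295). That call was lost without cytarabine 0.5 µM replicate 3 (0.0535), without FL-Fc-DM1 replicate 1 of that dose (0.103), under upper-quartile scaling (0.0693) and on the authors' TPM (0.352). After 1 µM the difference was 0.04, with an interval of -0.05 to 0.12.

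BCL2A1 (ENSG00000140379), a guardian best known as an NF-kappaB target of myeloid cells, had the largest fold rise among the 4 guardians of the 10 genes but remained at 15.1 CPM or below. It was at 3.70, 5.73 and 4.17 CPM in control, 14.2, 15.1 and 13.7 CPM with 0.5 µM cytarabine and 9.28, 10.94 and 10.01 CPM with 1 µM. With FL-Fc-DM1 the level was 11.0, 12.6 and 15.1 CPM for 0.5 µM and 9.43, 7.88 and 6.71 CPM for 1 µM. All treated libraries were above all control libraries, and the rise with cytarabine was 3.19-fold at 0.5 µM (log2 change 1.67 ± 0.158, edgeR adjusted p = 4.76e-10) and 2.23-fold at 1 µM (1.16 ± 0.163, edgeR adjusted p = 5.27e-07). The lower dose gave the higher level, by 1.43-fold between the cytarabine groups (edgeR adjusted p = 0.0126) and by 1.62-fold between the FL-Fc-DM1 groups (edgeR adjusted p = 0.0013). Between the cytarabine groups the call was lost without replicate 2 of 0.5 µM (0.0558) or replicate 1 of 1 µM (0.0561). FL-Fc-DM1 against cytarabine gave log2 changes of -0.15 (interval -0.44 to 0.14) and -0.33 (-0.65 to -0.002), which did not pass, although the second did without replicate 1 of its FL-Fc-DM1 group (-0.46, edgeR adjusted p = 0.0336).

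The stretch around the BCL2A1 start, from 250 bases before it to 50 after it, is shown because it holds the core bound by PU.1. PU.1 is the myeloid transcription factor encoded by SPI1, whose mRNA rose with cytarabine. It is from RefSeq on GRCh38.p14, written 5′ to 3′ along the gene, with the PU.1 core GAGGAAGT, which begins 179 bases before the start, in capitals.
BCL2A1 promoter, chr15:79971147-79971446, minus strand: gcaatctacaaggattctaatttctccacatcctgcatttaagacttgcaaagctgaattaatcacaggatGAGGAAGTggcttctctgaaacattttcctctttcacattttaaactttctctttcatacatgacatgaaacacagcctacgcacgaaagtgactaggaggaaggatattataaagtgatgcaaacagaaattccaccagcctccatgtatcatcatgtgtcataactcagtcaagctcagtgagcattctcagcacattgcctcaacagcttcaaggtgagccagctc
The core was found, on either strand, in 2.59% of 35116 such windows in RefSeq, and BAK1 was the only other family gene with it, 9 bases into the gene. SPI1 itself rose from 96.1 ± 3.48 CPM in control to 135 ± 3.60 and 147 ± 2.86 CPM with cytarabine and to 153 ± 5.73 and 171 ± 8.74 CPM after FL-Fc-DM1 (n = 3). SPI1 was higher at 1 µM than at 0.5 µM in mean, and BCL2A1 was lower. From cytarabine to FL-Fc-DM1, SPI1 was higher (log2 changes 0.186 and 0.215, edgeR adjusted p = 0.00113 and 0.000236), and BCL2A1 gave -0.146 and -0.327. Of the NF-kappaB genes listed, RELA was lower with cytarabine (-0.454 and -0.411, edgeR adjusted p = 4.34e-06 and 1.44e-05). NFKB1 gave -0.067 and -0.277 (edgeR adjusted p = 0.294 and 0.000121). No relation between these genes was tested. A match is a string of letters and was not tested as a binding site.

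BCL2L1 (ENSG00000171552), which encodes the guardian BCL-XL, was low in every group, at 12.1 to 19.2 CPM over the 15 libraries. The control libraries held 18.5, 19.2 and 17.2 CPM, those of 0.5 µM cytarabine 12.1, 16.0 and 15.1 CPM and those of 1 µM 19.0, 14.7 and 12.3 CPM. The 0.5 µM libraries lay below control without overlap, a 1.27-fold fall (log2 change -0.35 ± 0.130, edgeR adjusted p = 0.0191), which lost its call without control replicate 2 (0.0617), without cytarabine 0.5 µM replicate 1 (0.101) and on TPM (0.0644). At 1 µM the groups overlapped and the change was -0.24 (interval -0.50 to 0.02), and without replicate 1 of that group it was -0.44 (edgeR adjusted p = 0.00407). After FL-Fc-DM1 the libraries held 18.1, 14.3 and 16.1 CPM for 0.5 µM and 15.7, 14.7 and 17.1 CPM for 1 µM. FL-Fc-DM1 gave 0.17 (-0.11 to 0.45) and 0.03 (-0.25 to 0.31) against cytarabine, neither of which passed.

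The make-up of the pooled mRNA of the 4 guardians among the 10 genes turned over with cytarabine. Other guardian genes were not counted in this pool, among them BCL2L2, at 27.1 CPM in control and 30.0 and 29.5 CPM with cytarabine. BCL2 supplied 58.7 ± 0.202% of the summed TPM of the 4 guardians in control (SD, n = 3), 19.4 ± 0.443% with 0.5 µM and 24.4 ± 1.02% with 1 µM, and 17.2 ± 0.471% and 24.9 ± 0.586% after FL-Fc-DM1. MCL1 went from 34.6 ± 0.693% in control to 63.2 ± 0.821% and 61.5 ± 0.792%, and to 66.6 ± 1.48% and 62.8 ± 0.121% after FL-Fc-DM1. BCL2A1 went from 2.98 ± 0.640% to 13.2 ± 0.441% and 9.61 ± 0.659%, and to 11.7 ± 1.72% and 7.59 ± 1.02%. BCL2L1 supplied 3.68% to 4.72% in every group. The summed guardian TPM was 359 ± 10.6 in control and 246 to 251.5 in the 4 treated groups, and the lowest control library (348) was above the highest treated one (262.5). Shares of TPM are descriptions and carry no test.

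**Figure D3:**
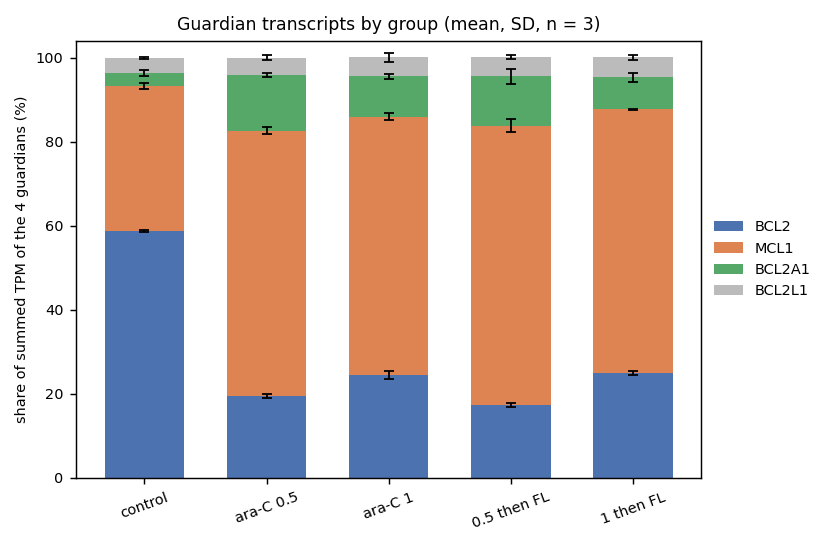
Share of each guardian (BCL2, MCL1, BCL2A1, BCL2L1) in the summed TPM of the 4 genes, in percent, stacked by group (ara-C is cytarabine in µM, FL is FL-Fc-DM1). Bars are means of 3 libraries and whiskers are the SD of each gene's share, drawn at the top of its segment. BCL2 was the largest segment in control (58.7%) and MCL1 in the 4 other groups (61.5% to 66.6%).

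The effectors moved little. BAX (ENSG00000087088), an effector that moves from cytosol to mitochondrion when activated, was at 85.7, 90.9 and 84.9 CPM in control, 107, 117 and 98.7 CPM with 0.5 µM cytarabine and 97.3, 105 and 95.3 CPM with 1 µM. Both cytarabine groups lay above control without overlap, by 1.23-fold (log2 change 0.30 ± 0.0597, edgeR adjusted p = 6.32e-05) and 1.14-fold (0.18 ± 0.0600, edgeR adjusted p = 0.00739). The second call was lost without replicate 2 of the 1 µM group (0.12, edgeR adjusted p = 0.0954). After FL-Fc-DM1, BAX was at 92.7, 102 and 95.2 CPM for 0.5 µM and 81.5, 94.3 and 92.8 CPM for 1 µM. The 1.11-fold fall against 0.5 µM cytarabine (edgeR adjusted p = 0.04), with overlapping groups, lost its call without either of replicates 1 and 2 of that cytarabine group, without either of replicates 1 and 3 of its FL-Fc-DM1 group (adjusted p from 0.117 to 0.363), with DESeq2 (0.0624), with DESeq2 size factors (0.0544) and on TPM (0.0748). The difference after 1 µM, also 1.11-fold, missed the threshold (edgeR adjusted p = 0.0595) and passed with the replicate block (0.0191), under upper-quartile scaling (0.0333), on TPM (0.0136) and without cytarabine 1 µM replicate 3 (0.0487) or FL-Fc-DM1 replicate 2 (0.0493). Against control, BAX was 1.11-fold higher after 0.5 µM and FL-Fc-DM1 (edgeR adjusted p = 0.0306) and 1.03-fold higher after 1 µM (0.57), and the first call was lost without control replicate 1 (0.0898) or 3 (0.105), without FL-Fc-DM1 replicate 2 (0.21) or 3 (0.061) and on TPM (0.0971).

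The BAX start is shown for its 4 E-boxes, CACGTG, the element bound by MYC with MAX and by related factors, here in capitals and beginning 138, 93, 45 and 14 bases before the start (RefSeq, GRCh38.p14).
BAX promoter, chr19:48954625-48954924, plus strand: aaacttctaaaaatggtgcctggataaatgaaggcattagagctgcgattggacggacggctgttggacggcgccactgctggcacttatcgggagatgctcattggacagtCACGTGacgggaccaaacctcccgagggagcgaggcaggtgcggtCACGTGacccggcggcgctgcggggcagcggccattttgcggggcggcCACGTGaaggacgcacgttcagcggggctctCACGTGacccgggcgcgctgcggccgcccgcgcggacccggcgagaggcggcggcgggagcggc
At least 1 E-box of this form was present in 7.26% of the 35116 windows, and BBC3 was the only other family gene with one, 232 bases before its start. MYC mRNA was at 636 ± 3.60 CPM in control, 286 ± 12.0 and 224 ± 6.70 CPM with cytarabine and 353 ± 1.47 and 247 ± 5.58 CPM after FL-Fc-DM1 (n = 3), so it fell in the groups where BAX rose. These are values side by side, and no relation between them was tested.

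BAK1 (ENSG00000030110), the effector that sits in the outer mitochondrial membrane, rose slightly and stayed up. It measured 43.0, 45.8 and 44.7 CPM in control, 54.4, 56.3 and 49.97 CPM with 0.5 µM cytarabine and 58.4, 55.2 and 62.3 CPM with 1 µM. In the FL-Fc-DM1 groups it was at 57.6, 62.6 and 56.3 CPM for 0.5 µM and 52.6, 55.2 and 64.1 CPM for 1 µM. All treated libraries were above control, by 1.20-fold (log2 change 0.27 ± 0.0699, edgeR adjusted p = 0.00131) and 1.32-fold (0.40 ± 0.0690, edgeR adjusted p = 1.07e-05) with cytarabine, and by 1.32-fold and 1.29-fold after FL-Fc-DM1. FL-Fc-DM1 against cytarabine gave 0.14 (interval -0.01 to 0.28) and -0.03 (-0.18 to 0.11), neither of which passed. The first passed with only the compared groups in the fit (edgeR adjusted p = 0.0379) and in limma voom with a spread per group (0.0498). BAK1 has the annotated pseudogenes BAK1P1 and BAK1P2, and the labels do not say how reads shared with them were counted.

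BCL2L11 (ENSG00000153094) encodes BIM, a BH3-only protein that binds all guardians and is induced when growth factor signals stop. Its mRNA was at 72.2, 69.7 and 63.7 CPM in control, 137, 138 and 137 CPM with 0.5 µM cytarabine and 139, 137 and 137 CPM with 1 µM. After FL-Fc-DM1 it was at 106, 100.2 and 105 CPM for 0.5 µM and 110.3, 99.3 and 91.0 CPM for 1 µM. The 3 levels, control, cytarabine and FL-Fc-DM1, did not overlap at either dose. The rise with cytarabine was 2.01-fold at both doses (log2 changes 1.00 ± 0.0541 and 1.01 ± 0.0540, edgeR adjusted p = 5.35e-15 and 3.77e-15). Between the doses the change was 0.00, with an interval of -0.10 to 0.11. FL-Fc-DM1 groups were lower than cytarabine by 1.32-fold (-0.40 ± 0.0529, edgeR adjusted p = 8.14e-07) and 1.37-fold (-0.46 ± 0.0537, edgeR adjusted p = 1.28e-07), and they remained 1.52-fold and 1.46-fold above control.

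The BCL2L11 start is shown for a forkhead core, GTAAACA, the element of FOXO factors that is well known for BIM. It begins 223 bases before the start and is in capitals (RefSeq, GRCh38.p14).
BCL2L11 promoter, chr2:111120664-111120963, plus strand: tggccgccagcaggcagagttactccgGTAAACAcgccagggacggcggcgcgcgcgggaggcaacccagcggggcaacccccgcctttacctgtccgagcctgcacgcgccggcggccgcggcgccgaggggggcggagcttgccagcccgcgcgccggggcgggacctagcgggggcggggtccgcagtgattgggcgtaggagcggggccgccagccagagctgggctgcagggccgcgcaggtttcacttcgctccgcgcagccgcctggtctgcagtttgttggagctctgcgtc
The core was present in 3.42% of the 35116 windows and in no other family window searched. FOXO3 mRNA was at 124 ± 4.08 CPM in control, 95.3 ± 3.81 and 95.7 ± 7.61 CPM with cytarabine and 71.8 ± 1.04 and 74.9 ± 1.77 CPM after FL-Fc-DM1 (n = 3). FOXO3 thus fell with cytarabine (log2 changes -0.37 and -0.36, edgeR adjusted p = 2.43e-07 and 3.1e-07) while BCL2L11 rose, and both fell from cytarabine to FL-Fc-DM1 (FOXO3 -0.41 and -0.36). FOXO1, the other FOXO gene listed, went the other way with cytarabine at far lower levels, from 2.19 ± 0.351 CPM in control to 5.27 ± 0.149 and 3.77 ± 0.612 CPM (log2 changes 1.27 and 0.79, edgeR adjusted p = 3.6e-05 and 0.00514). It was at 2.96 ± 0.111 and 1.71 ± 0.608 CPM after FL-Fc-DM1, below cytarabine (-0.83 and -1.14, edgeR adjusted p = 0.00554 and 0.00103). FOXO1 and BCL2L11 thus had the same direction in these 4 comparisons, which share libraries. After 0.5 µM and FL-Fc-DM1 both means were also above control. After 1 µM and FL-Fc-DM1 the FOXO1 mean was below control, where BCL2L11 was 1.46-fold higher. Between cytarabine doses the FOXO1 mean went from 5.27 to 3.77 CPM, where the BCL2L11 log2 change was 0.004. No relation between the 2 genes was tested. FOXO proteins are controlled largely by phosphorylation and location, which mRNA does not show.

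BMF (ENSG00000104081), a BH3-only protein held on the cytoskeleton by dynein light chain and known as a sensor of detachment, was the member with the largest change under FL-Fc-DM1. It was at 79.3, 79.6 and 77.6 CPM in control, 170.2, 169.5 and 167 CPM with 0.5 µM cytarabine and 199, 205 and 219 CPM with 1 µM. The FL-Fc-DM1 libraries held 87.2, 83.8 and 87.8 CPM for 0.5 µM and 142, 135 and 149 CPM for 1 µM. No pair of groups overlapped. The rise with cytarabine was 2.14-fold at 0.5 µM (log2 change 1.10 ± 0.0443, edgeR adjusted p = 1.06e-17) and 2.63-fold at 1 µM (1.397 ± 0.0437, edgeR adjusted p = 3.73e-20). FL-Fc-DM1 groups were 1.96-fold lower than cytarabine after 0.5 µM (-0.97 ± 0.0449, edgeR adjusted p = 5.19e-15), with 4.79% of genes tested changing more, and 1.46-fold lower after 1 µM (-0.55 ± 0.0426, edgeR adjusted p = 8.75e-11). Against control, BMF was 1.80-fold higher after 1 µM and FL-Fc-DM1 (edgeR adjusted p = 5.57e-15). After 0.5 µM it was 1.10-fold higher (0.13, edgeR adjusted p = 0.0162), a call lost without control replicate 3 (0.0602), without FL-Fc-DM1 replicate 1 (0.0741) or 3 (0.0882), with no low-count filter (0.0596) and on TPM (0.447).

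The difference between the doses was itself tested, as the FL-Fc-DM1 change after 1 µM minus the change after 0.5 µM. BMF was the 1 gene of the 10 called, and it was higher, where 2.14% of all genes were called higher, 0.931% lower and 3.07% in either direction. Its interaction was 0.42 ± 0.0620 on the log2 scale, with an interval of 0.29 to 0.54 (edgeR quasi-likelihood test, Benjamini-Hochberg adjusted p = 0.00016). Leaving out any 1 library kept the call, whereas on the authors' TPM the value was 0.28 (limma-trend adjusted p = 0.134), and the value is also below a log2 change of 0.5, an alternative threshold. For BCL2 the interaction was 0.15 (interval 0.04 to 0.26, edgeR adjusted p = 0.137), and the other 8 genes lay between -0.18 and 0.14 without passing.

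PMAIP1 (ENSG00000141682) encodes NOXA, a BH3-only protein that binds MCL1 and BFL1/A1 and is induced by ATF4, among other factors. Its mRNA was at 60.7, 58.8 and 57.9 CPM in control, 24.5, 20.5 and 23.2 CPM with 0.5 µM cytarabine and 32.9, 36.2 and 34.7 CPM with 1 µM. FL-Fc-DM1 libraries were at 17.2, 16.1 and 16.99 CPM for 0.5 µM and 24.1, 25.5 and 24.3 CPM for 1 µM. Control libraries were the highest, and each FL-Fc-DM1 group lay below the cytarabine group of its dose without overlap. PMAIP1 fell 2.60-fold with 0.5 µM (log2 change -1.38 ± 0.0690, edgeR adjusted p = 1.15e-15) and 1.71-fold with 1 µM (-0.78 ± 0.0652, edgeR adjusted p = 4.46e-11). In the FL-Fc-DM1 groups it was lower still, by 1.36-fold (-0.44 ± 0.0816, edgeR adjusted p = 8.82e-05) and 1.4-fold (-0.49 ± 0.0743, edgeR adjusted p = 7.05e-06). These levels were 3.52-fold and 2.40-fold below control. As with BCL2, the level was higher at the higher dose, by 1.52-fold with cytarabine (edgeR adjusted p = 1.13e-06) and by 1.47-fold with FL-Fc-DM1 (edgeR adjusted p = 1.23e-05).

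The PMAIP1 start is shown for a CRE core, TGACGT, the kind of element bound by ATF and CREB factors, which lies 56 bases before the start on the opposite strand and therefore reads ACGTCA in capitals here (RefSeq, GRCh38.p14).
PMAIP1 promoter, chr18:59899746-59900045, plus strand: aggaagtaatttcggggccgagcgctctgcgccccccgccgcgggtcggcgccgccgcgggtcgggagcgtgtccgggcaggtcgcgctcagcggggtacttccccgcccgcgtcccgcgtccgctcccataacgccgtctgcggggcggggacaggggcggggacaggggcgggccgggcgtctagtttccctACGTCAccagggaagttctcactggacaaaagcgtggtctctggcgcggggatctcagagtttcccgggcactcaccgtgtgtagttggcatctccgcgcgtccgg
The core was present in 7.98% of the 35116 windows and in no other family window searched. ATF4 mRNA was at 426 ± 19.8 CPM in control, 204 ± 4.98 and 206 ± 11.7 CPM with cytarabine and 190.4 ± 8.15 and 186 ± 8.02 CPM after FL-Fc-DM1 (n = 3). Both genes were highest in control, and the ATF4 means at 0.5 and 1 µM cytarabine were within 1 SD of each other. DDIT3, an ATF4 target that encodes CHOP, also fell, by 2.94-fold and 2.30-fold with cytarabine (edgeR adjusted p = 2.61e-13 and 2.13e-11). From cytarabine to FL-Fc-DM1, where PMAIP1 was lower, the DDIT3 log2 changes were 0.003 and 0.01 (edgeR adjusted p = 0.986 and 0.951). No relation between these genes was tested.

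BBC3 (ENSG00000105327) encodes PUMA, a BH3-only protein that binds all guardians, and its mRNA was called higher than control in no treated group. It was at 21.8, 20.8 and 22.4 CPM in control, 18.4, 16.99 and 17.8 CPM with 0.5 µM cytarabine and 21.6, 20.2 and 20.2 CPM with 1 µM. After FL-Fc-DM1 it was at 13.7, 14.9 and 11.9 CPM for 0.5 µM and 14.7, 16.8 and 20.2 CPM for 1 µM. The 0.5 µM group lay below control, by 1.22-fold (log2 change -0.29 ± 0.1, edgeR adjusted p = 0.0126), and the 1 µM group overlapped control (-0.07, interval -0.27 to 0.14). FL-Fc-DM1 groups were 1.32-fold (edgeR adjusted p = 0.00379) and 1.20-fold (0.0437) below cytarabine. The first call was lost without FL-Fc-DM1 replicate 3 of its group (0.0509), and the second without any of 5 of the 6 libraries compared (adjusted p from 0.057 to 0.231), with DESeq2 (0.0741), with no low-count filter (0.0722), with only the compared groups in the fit (0.118) and in limma voom with a spread per group (0.0959). Against control, the FL-Fc-DM1 groups were 1.61-fold (edgeR adjusted p = 2.03e-06) and 1.26-fold (0.00615) lower, the second losing its call without replicate 1 of that group (0.0529).

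Summed over the 4 BH3-only genes, the level was 148 ± 4.74 TPM in control, 171 ± 3.36 TPM with 0.5 µM cytarabine and 209 ± 8.72 TPM with 1 µM (SD, n = 3). It was 109 ± 2.14 and 144 ± 2.43 TPM after FL-Fc-DM1. Every FL-Fc-DM1 library was below every cytarabine library, and only the 1 µM FL-Fc-DM1 group overlapped control. The 2 effectors summed to 232 ± 12.1 TPM in control, 282 ± 17 and 277 ± 6.54 TPM with cytarabine and 261 ± 15.0 and 243 ± 16.7 TPM after FL-Fc-DM1. Sums are descriptions and have no test.

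**Figure D4:**
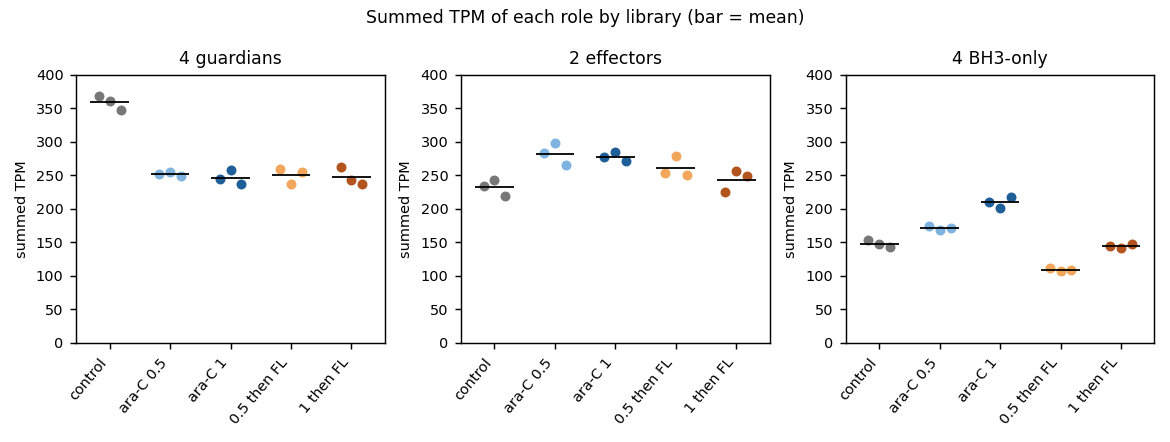
Summed TPM of the 4 guardians, the 2 effectors and the 4 BH3-only genes in every library, on a common vertical axis that starts at 0 (ara-C is cytarabine in µM, FL is FL-Fc-DM1). Points are libraries, 3 per group, and bars are means. Guardian sums were 348 to 369 TPM in control and 236 to 262.5 TPM in all other libraries, whereas BH3-only sums were highest with 1 µM cytarabine.

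Between the cytarabine doses 3 of the 10 genes were called higher at 1 µM (BCL2, BMF and PMAIP1) and 1 lower (BCL2A1), against 9.08% and 10.3% of all genes tested and 19.3% in either direction. Between the FL-Fc-DM1 groups 4 were called higher after 1 µM (those 3 and BBC3) and 2 lower (MCL1 and BCL2A1), against 14.3% and 14%, and 28.3% in either direction. MCL1 was 1.12-fold lower (edgeR adjusted p = 0.00489), a call that was lost on TPM (0.202). BBC3 was 1.28-fold higher (edgeR adjusted p = 0.0171) with overlapping groups, and the call was lost without replicate 3 of either FL-Fc-DM1 group (0.118 and 0.131) and with only the compared groups in the fit (0.0647). MCL1 between the cytarabine doses did not pass (-0.09, edgeR adjusted p = 0.155) but passed without replicate 2 of 1 µM (0.0256). Against control, 6 genes were called higher and 3 lower after 0.5 µM and FL-Fc-DM1, where 35% and 34.2% of all genes were, and 69.2% in either direction. After 1 µM and FL-Fc-DM1 5 were higher and 3 lower, where 35.8% and 35.4% were, and 71.2% in either direction.

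Over the 11 motifs searched on both strands, the windows of 9 family genes (11 windows) could be read, and MCL1 had no window. The E2F forms TTTGGCGC and TTTCGCGC were in no family window, and 1.15% of the 35116 windows held one of them. The STAT form TTCNNNGAA was in that of BCL2A1 only (7.66% of all windows) and the NF-kappaB site, by name, in that of BMF only (11.3%). The GC box GGGCGG was in windows of 6 genes (44.95% of all windows), the CCAAT box in 5 (34.6%) and the TATA box TATAAA in 2, BCL2L1 and BCL2A1 (11.53%). The BCL2 window held none of the 11. The annotated exons of BCL2L1 overlap ABALON, those of MCL1 ADAMTSL4-AS1, those of BAK1 GGNBP1, those of BCL2L11 MIR4435-2HG, those of BMF BMF-AS1 and those of BBC3 MIR3190 and MIR3191. The labels do not say whether counting used strand, so reads of such neighbours cannot be told apart. No capital motif in the sequences shown overlapped another of the motifs, and a window without a match says nothing of the factor.

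Among 12 other relatives of BCL2, 10 were tested. With cytarabine 2 were higher and 3 lower at each dose, with medians of 0.11 and 0.10 against 0.03 and 0.03 over all genes. That is 5 of 10 called, where 73.2% and 75.9% of all genes were. BID, a BH3-only protein that caspase-8 cuts into its active form, fell from 55.2 ± 1.81 CPM in control to 35.8 ± 0.320 and 34.6 ± 1.85 CPM (SD, n = 3; edgeR adjusted p = 1.57e-09 and 3.18e-10) and was at 47.4 ± 2.10 and 42.2 ± 3.10 CPM after FL-Fc-DM1. BCL2L12 fell 1.41-fold and 1.42-fold with cytarabine. BCL2L2, which encodes the guardian BCL-W, was 1.26-fold and 1.25-fold lower with FL-Fc-DM1 than with cytarabine (edgeR adjusted p = 0.00142 and 0.00184). After FL-Fc-DM1, 1 relative was higher and 1 lower at 0.5 µM, and 2 and 2 at 1 µM, where BNIP3 was lower and BIK higher, against 44.7% and 45.7% of all genes called in either direction.

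Downstream of the effectors, 4 of 11 apoptosome and caspase genes rose and 4 fell at each cytarabine dose, with medians of 0.07 and 0.09 against 0.03 and 0.03 over all genes. That share, 8 of 11, is near the 73.2% and 75.9% of all genes called. CYCS, cytochrome c, fell from 364 to 199 and 187 CPM (1.83-fold and 1.95-fold, edgeR adjusted p = 9.95e-15 and 1.14e-15) and was 1.64-fold and 1.61-fold higher with FL-Fc-DM1 than with cytarabine. APAF1, the scaffold that cytochrome c binds, rose 1.45-fold and 1.42-fold with cytarabine (157 to 228 and 224 CPM). Of 6 tested genes of the IAP list, which encodes caspase inhibitors and relatives, 4 rose and 1 fell at each dose, where 38% and 39.3% of all genes rose and 35.2% and 36.6% fell, with medians of 0.43 and 0.55 against 0.03 and 0.03 over all genes. NAIP rose from 59.1 to 224 and 194 CPM with cytarabine, and was 1.59-fold and 1.60-fold higher again with FL-Fc-DM1. BIRC5, survivin, which also acts in mitosis, fell 3.24-fold and 4.36-fold.

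In the death receptor list, which feeds the same machinery from the cell surface, 5 of 10 genes rose and 2 fell at 0.5 µM, and 6 rose and 3 fell at 1 µM, where 73.2% and 75.9% of all genes were called in either direction. The medians were 0.41 and 0.46 against 0.03 and 0.03 over all genes. CFLAR, the inhibitor of caspase-8 activation, rose 2.57-fold and 3.04-fold, and the receptor gene FAS rose 2.49-fold and 2.51-fold (edgeR adjusted p of at most 8.64e-13 for these 4 values). With FL-Fc-DM1 4 of the 10 were lower than with cytarabine at each dose and 2 and 1 were higher, where 22.8% and 22.2% of all genes were lower and 22% and 23.5% higher. Among the lower genes were CASP8 (1.36-fold and 1.27-fold) and TNFRSF10B (1.21-fold and 1.23-fold). Of 9 tested genes whose products control turnover or location of family proteins, 5 fell at each cytarabine dose, and 1 and 3 rose, so that 6 and 8 of 9 were called where 73.2% and 75.9% of all genes were. Their medians were -0.14 and -0.11 against 0.03 and 0.03 over all genes. HUWE1, a ubiquitin ligase of MCL1, fell 1.91-fold and 1.98-fold, FBXW7, another, rose 1.5-fold and 1.81-fold, and DYNLL1, a dynein light chain known to bind BIM, fell 1.44-fold at both.

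For each family gene, the genes with the most similar level over the 15 libraries were named by Pearson's r of log2 CPM, as a description without a test. The 15 points are 5 groups of 3, so r mostly follows the group means. EZH2 (r = 0.993) and RANBP9 (0.991) were closest to BCL2, C9orf72 and PTPRC (both 0.993) to BCL2L11, ITGA5 (0.985) and MKLN1 (0.979) to BMF, and SATB1 (0.980) and CEP120 (0.979) to PMAIP1. CD151 (0.963) and KBTBD8 (0.957) were closest to MCL1 and FLVCR2 (0.960) and EIF4A2 (0.958) to BCL2A1. CCDC159 (0.948) and WBP2 (0.938) came nearest BAK1, SARNP (0.925) and ZNF417 (0.880) BAX, SMURF2 (0.925) and NTSR1 (0.918) BBC3, and ANKS1A (0.803) and ABL1 (0.792) BCL2L1. The last gene, at 12.1 to 19.2 CPM, had the weakest likeness of the 10.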

How the data were processed

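For 15 libraries the authors deposited estimated counts and, for the same genes, TPM values, both in 1 table. Tools listed in the submitters' processing notes, without saying what each did, are StringTie 1.3.1, fastp 0.18.0, edgeR, HISAT2 and DESeq2. Genome build, annotation, counting and strand were not stated. Between 9.62% and 11.3% of count values per library were not whole (tolerance 0.01), 0 of them in the 10 genes, so counts were rounded. Rows without a symbol (645, 0.161% to 0.182% of counts) were kept. Of the gene IDs, 20322 matched the table of gene names.

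Counts were fitted in R 4.3.3 with edgeR 4.0.16 (quasi-likelihood, TMM, minimum count 10, minimum total 15), 1 fit over 5 groups with 10 residual degrees of freedom and 12355 genes. Library pairs differed more within the 1 µM groups. Their chi-square per gene was 3.37 to 3.65 with cytarabine and 3.87 to 4.97 after FL-Fc-DM1, against 1.75 to 2.39 in the other groups. The fit shares each gene's spread over all groups, so intervals and p-values involving 1 µM, with the BMF dose difference, may be too narrow. P-values were adjusted by Benjamini-Hochberg over all genes and called under 0.05. The test was run on simulated data in which a small share of genes changed in 1 group. Most genes were called with cytarabine here, so that run does not show how the test behaves in such comparisons. Alternatives used limma 3.58.1 (log2 TPM with a pseudocount of 0.1, and voom with a spread per group), DESeq2 1.42.0, other scalings, no filter, only the compared groups, a replicate block, a log2 change of at least 0.5, guardian shares in CPM and leaving out each library. The 10 genes and the lists were chosen with earlier results of these data known. From each list up to 4 called genes per main comparison with at least 10 CPM were eligible to be named, by smallest p, and for likeness the 2 highest Pearson r of log2 CPM (prior count 2). FOXO3 against control, FOXO1, RELA, NFKB1 with cytarabine, DDIT3 with FL-Fc-DM1 and BCL2L2 with cytarabine fall outside that rule and were added after their values were seen. Results that need 1 withheld item, among them a gene list and a motif, are not reported here. No 2 libraries were identical. Library depth limits the precision of the genes with the fewest counts.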

Additional observations from a re-analysis of the deposited data

Results flagged for a closer look

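BMF was the 1 gene of the 10 whose FL-Fc-DM1 change differed between the cytarabine doses by a test of the difference itself. FL-Fc-DM1 against cytarabine gave -0.97 after 0.5 µM and -0.55 after 1 µM on the log2 scale, a difference of 0.417 (interval 0.289 to 0.544, edgeR quasi-likelihood adjusted p = 0.00016). All 3 FL-Fc-DM1 libraries were below all 3 cytarabine libraries at each dose. Over the alternatives the value ran from 0.282 to 0.459. The call was lost on TPM (0.282, limma-trend adjusted p = 0.134) and where a log2 change of at least 0.5 was also required, which 0.417 does not reach. The cause was not tested.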

How the results depend on the processing

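Over 1320 alternative values for single genes, 1235 kept direction and call, 43 lost the call, 11 gained one and 31 changed sign. Those that changed sign were uncalled, and not all were near 0. The BCL2L1 dose difference was -0.137 in the main fit and ran from -0.27 to 0.059 leaving out a library. With a log2 change of at least 0.5 also required, which leaves fewer genes by construction, the family genes called were 5 and 5 for cytarabine at 0.5 and 1 µM against control, 1 and 1 for FL-Fc-DM1 against cytarabine, 2 between cytarabine doses, 3 between FL-Fc-DM1 groups, 0 for the dose difference of the FL-Fc-DM1 change, and 5 and 5 for FL-Fc-DM1 against control. In the same order, calls over all genes went from 9046, 9375, 5528, 5646, 2390, 3494, 379, 8548 and 8798 to 5491, 5971, 1531, 1714, 457, 773, 130, 4831 and 5196. On TPM the dose difference called 0 family genes and 139 genes in all, and 1266 genes were called between cytarabine doses, and the cause was not tested. Leaving out 1 library gave 9 to 10, 7 to 9, 5 to 7, 3 to 5, 3 to 5, 5 to 6, 1 to 1, 7 to 9 and 7 to 8 family genes called.

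Signs changed for FL-Fc-DM1 against 1 µM cytarabine in BCL2 (-0.01 under upper-quartile scaling, -0.016 to 0.053 leaving out a library), BCL2L1 (-0.102 to 0.227), MCL1 (-0.006 to 0.099) and BAK1 (-0.108 to 0.023). Between cytarabine doses they changed in BCL2L1 (-0.092 to 0.237) and BCL2L11 (-0.005 to 0.011, and 0 without the low-count filter). Between FL-Fc-DM1 groups they changed in BCL2L1 (-0.124 to 0.04, and 0.018 on TPM), BAK1 (-0.127 to 0.019, and 0.005 on TPM) and BCL2L11 (-0.127 to 0.01). For the dose difference they changed in BCL2L1 (-0.27 to 0.059), BAX (-0.054 to 0.074, -0.011 with only the compared groups and -0.068 on TPM), BCL2L11 (-0.129 to 0.005) and PMAIP1 (-0.109 to 0.019), and against control in BAX after 1 µM and FL-Fc-DM1 (-0.01 to 0.101). The cause was not tested.

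Replicate numbers were not taken as pairing, because the labels do not say that they mark a shared culture or day. Between libraries of the same number, 1 of 30 correlations was over 0.1. The own number was the highest of the 3 in 19 of 30, more often than the 1 in 3 of numbers without meaning. Whether the numbers mark a shared culture or day was not tested. With the replicate block, calls over all genes were 9072, 9417, 5596, 5701, 2422, 3594, 438, 8591 and 8811, and of the family genes' calls it changed that of BAX in FL-Fc-DM1 against 1 µM cytarabine (-0.146). In CPM in place of TPM, BCL2 made up 72% of the guardian pool in control and 28% to 38% elsewhere. Depth limits BCL2A1 and BCL2L1 most, the family genes with the fewest reads.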

Other observations

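BMF counts per unit of deposited TPM, relative to the control mean, were 109.1 ± 3.91% (SD, n = 3) after 1 µM cytarabine and FL-Fc-DM1 and 98.4% to 101.8% in the other treated groups. TPM and counts of BMF therefore did not move in proportion in that group. The dose difference lost on TPM uses that group together with all the other treated groups. The cause was not tested.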
